A study of Danio rerio with 26 samples.

Results

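The genes of glycolysis and their duplicate copies were followed in the skin of 26 male zebrafish. The group covers glucose uptake, each enzyme step from hexokinase to lactate dehydrogenase, and lactate export. Members were taken by gene symbol, ignoring case, and a capital orthologue symbol without its final a or b was accepted. Of 33 symbols, 32 matched and pgk1 did not, which gave 33 Ensembl identifiers among the 32105 in both count tables. Of these, 11 identifiers had a symbol of their own and 22 shared a symbol with another copy. The shared symbols are printed with their identifier, because the a and b copies could not be assigned to them.

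RNA was sequenced with 1 library per fish. All fish were labelled as treated with rotenone, an inhibitor of mitochondrial complex I, and no untreated fish entered the comparisons. The fish of 1 year carried the strain label AB JxTu and had received 3.75 nM (n = 9) or 37.5 nM (n = 9). The fish of 3 years had received 37.5 nM (n = 8) and carried the label AB JxTu Tg(flk:mCherry), a reporter line, so age and strain cannot be told apart. The 9 fish at 3.75 nM come from a separate deposited table, so table and concentration cannot be told apart either.

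Glycolysis splits glucose into pyruvate in the cytosol and yields ATP without oxygen, and lactate dehydrogenase then regenerates the NAD+ that the pathway consumes. Most steps are served by several isozymes: PFKM, ALDOA, PGAM2 and ENO3 are named after the forms that dominate in mammalian muscle, whereas PFKL, PFKP, ALDOC, PGAM1 and ENO1 are named after forms of other tissues. Zebrafish often carry an additional pair of copies from the genome duplication of teleost fish. In vertebrate skin, epidermal cells are known for a high glycolytic rate. By these names, 6 identifiers were muscle isozymes, 10 were non-muscle paralogues of the same steps and 17 belonged to neither class.

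Total counts ranged from 25454674 to 35162246 per fish. Keratinocyte markers were present in every library, with summed CPM (counts scaled to library size) of 27240 to 77640, and skeletal muscle markers summed to 4244 to 73310 CPM. The fish numbers in the titles fell into a low run (12 fish) and a high run (14 fish), each present in all 3 groups, and the labels do not explain them. Skin pieces hold several cell types, and in such bulk RNA fewer cells of a type and less RNA per cell cannot be told apart. All p-values rest on the variation among these fish.

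RNA levels of the members differed widely, with a few abundant genes at the top. Levels between genes were compared as deposited RPKM, the authors' value per gene length. Over 26 fish, GAPDH, the enzyme that reduces NAD+, had the highest median RPKM of 511, with a range from 171 to 2853. The muscle-type aldolase ALDOA (ENSDARG00000011665) followed with a median of 401 RPKM, then GAPDHS, named after the GAPDH form of mammalian sperm, with 296 RPKM. ENO3, a muscle-type enolase, had a median of 279 RPKM, and LDHB, the lactate dehydrogenase subunit typical of heart in mammals, 216 RPKM. These ranges overlapped between neighbours, so the order of the leading genes differed from fish to fish.

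At the other end, ALDOC (ENSDARG00000057661) and SLC2A1 (ENSDARG00000001437) were close to absent, with at most 4 and 26 counts in any fish. Their mean levels were 0.0428 and 0.104 CPM, and neither passed the filter on low counts. TPI1 (ENSDARG00000025012), ldhbb and ENO1 (ENSDARG00000013750) averaged 1.01, 4.05 and 3.02 CPM. The other 28 members averaged 5 CPM or more and are those described by step. SLC2A1, the glucose transporter GLUT1, had 1 abundant copy, ENSDARG00000007412, with a median of 29.3 RPKM against 0.039 for the other.

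**Figure D1:**
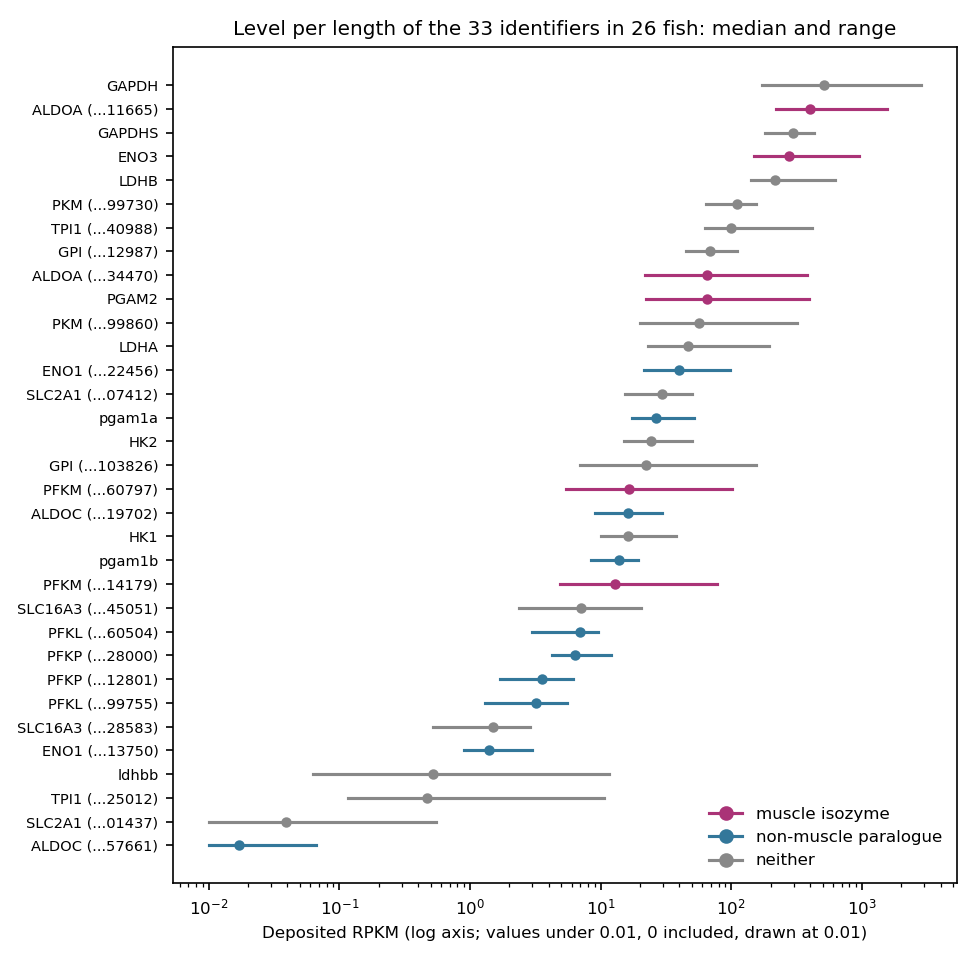
Deposited RPKM on a log axis for the 33 identifiers, with the median (point) and range (line) over 26 fish, coloured by class. Medians run from 0.017 for ALDOC (ENSDARG00000057661) to 511 for GAPDH, and the muscle isozymes have wide ranges.

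The steps are given in order with their levels in the 3 groups, as lowest, median and highest CPM for 1 year at 3.75 nM, 1 year at 37.5 nM and 3 years at 37.5 nM. At uptake, SLC2A1 (ENSDARG00000007412) had 35.5, 54.4 and 65.6 CPM, 30.2, 53.3 and 79.6 CPM, and 34.2, 43.2 and 66.7 CPM. HK2 had 52.2, 104.8 and 147.0 CPM, 46.5, 61.5 and 101.2 CPM, and 45.1, 70.3 and 130.3 CPM, so the 3.75 nM fish had the highest median. HK1 had medians of 103.6, 64.6 and 54.3 CPM in the same order. GPI (ENSDARG00000012987) had medians of 180.3, 145.6 and 157.9 CPM within 108.8 to 247.4 CPM, and GPI (ENSDARG00000103826) medians of 45.8, 27.9 and 48.9 CPM within 16.1 to 383.5 CPM. The second copy thus had the wider range.

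Among the phosphofructokinases, PFKM (ENSDARG00000014179) had medians of 46.0, 40.2 and 32.9 CPM in the 3 groups and PFKM (ENSDARG00000060797) medians of 42.3, 46.4 and 53.4 CPM. Their highest values, 348.1 and 346.5 CPM, were in the 3-year group. PFKL (ENSDARG00000060504) had medians of 30.3, 27.1 and 26.8 CPM and PFKP (ENSDARG00000012801) medians of 17.99, 16.21 and 15.07 CPM, with overlapping groups. Of the aldolases, ALDOA (ENSDARG00000011665) had medians of 750.1, 816.2 and 787.9 CPM within 421.3 to 4013 CPM. ALDOA (ENSDARG00000034470) had medians of 122.5, 89.0 and 108.6 CPM within 38.5 to 728.1 CPM. ALDOC (ENSDARG00000019702), named after the brain form of mammals, had medians of 43.2, 33.2 and 31 CPM within 16.8 to 91.1 CPM.

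TPI1 (ENSDARG00000040988), which interconverts the triose phosphates, had medians of 226.8, 186.9 and 199.3 CPM within 130.1 to 1011 CPM. ENO3 had medians of 623.6, 645.3 and 612.7 CPM, and ENO1 (ENSDARG00000022456) medians of 127.0, 103.0 and 109.2 CPM, with all groups overlapping. PKM (ENSDARG00000099860) had medians of 114.4, 111.7 and 125.4 CPM within 48.6 to 819.6 CPM. LDHA had medians of 111.9, 98.3 and 90.3 CPM within 55.4 to 498.0 CPM, and the exporter SLC16A3 (ENSDARG00000045051) medians of 21.19, 22.98 and 20.03 CPM within 7.79 to 86.7 CPM. In these genes the medians lay close together while single fish ranged widely.

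Within a fish, the balance of copies differed by step. ALDOA (ENSDARG00000011665) exceeded ALDOA (ENSDARG00000034470) in RPKM in 26 of 26 fish, by 3.82 to 16.2 times. ENO3 exceeded ENO1 (ENSDARG00000022456) in all 26 fish, by 5.25 to 10.9 times. LDHB exceeded LDHA, the subunit typical of muscle in mammals, in all 26 fish, with a median ratio of 4.29 and a range of 1.35 to 11.4. These steps thus had a fixed order of copies.

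Other steps changed order between fish. The RPKM ratio of GAPDH to GAPDHS ranged from 0.762 to 14.3, with a median of 1.77, and GAPDH was the higher copy in 22 of 26 fish. GPI (ENSDARG00000012987), a glucose phosphate isomerase, exceeded GPI (ENSDARG00000103826) in 22 of 26 fish, at ratios of 0.343 to 9.68. PKM (ENSDARG00000099730), a pyruvate kinase, exceeded PKM (ENSDARG00000099860) in 19 of 26 fish, at ratios of 0.204 to 5.62. PGAM2, a phosphoglycerate mutase, exceeded pgam1a in 23 of 26 fish, and HK2 exceeded HK1, the other hexokinase, in 22 of 26. The deposited RPKM do not follow the total count of each library: the ratio of count to RPKM of a gene deviated by -0.253 to 0.393 (log2) between fish. A scale shared by all genes of a fish cancels in the ratios of copies given here. How much of the deviation is shared was not tested.

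Many members followed skeletal muscle markers from fish to fish, and their sister copies often did not. Each member's log2 CPM was set against the mean log2 CPM of 31 muscle markers, which contain no member, over 26 fish with group means removed. For 13 of the 28 members, Pearson's r was 0.85 to 0.94 and Spearman's rho 0.81 to 0.94. They were all 6 muscle isozymes, 1 non-muscle paralogue and 6 others. ALDOA (ENSDARG00000034470) and PGAM2 had r = 0.94, and LDHA had r = 0.93. PKM (ENSDARG00000099860) had r = 0.91 and PFKM (ENSDARG00000060797), a phosphofructokinase of the muscle type, r = 0.90. GAPDH, TPI1 (ENSDARG00000040988), GPI (ENSDARG00000103826) and the lactate exporter SLC16A3 (ENSDARG00000045051) had r = 0.89. ENO1 (ENSDARG00000022456) was the non-muscle paralogue among them, with r = 0.85.

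These correlations describe the 26 fish, which share a library kit and a similar depth, and the boundary of 0.85 was drawn after the values were seen. Taking either run alone, r of the 13 members lay between 0.77 and 0.96. Without the 2 fish farthest from the median of the muscle list (3-year replicate 3 and 1-year 37.5 nM replicate 5), it lay between 0.78 and 0.91. The slope was 0.39 to 0.91 log2 units of the gene per log2 unit of the muscle list. The same 13 members also had r of 0.65 to 0.80 with the endothelial list and 0.62 to 0.74 with the list for Schwann cells and nerve. The source of their RNA was not tested.

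For 14 members r lay between -0.52 and 0.31 (rho -0.47 to 0.32), and HK1 was intermediate at 0.65. The negative end held GPI (ENSDARG00000012987) at -0.52, GAPDHS at -0.36, PFKP (ENSDARG00000012801) at -0.29 and PKM (ENSDARG00000099730) at -0.24. The phosphofructokinases PFKL (ENSDARG00000060504), PFKL (ENSDARG00000099755) and PFKP (ENSDARG00000028000) had r of 0.08, -0.05 and 0.10, and LDHB had 0.21. For HK2 the relation had opposite signs in the runs, with r = 0.79 among low-run fish and -0.70 among high-run fish. Signs also differed for PFKL (ENSDARG00000099755, -0.77 and 0.23), SLC16A3 (ENSDARG00000028583, -0.77 and 0.32) and SLC2A1 (ENSDARG00000007412, 0.69 and -0.25). The same held, with smaller values, for ALDOC (ENSDARG00000019702, 0.22 and -0.09) and pgam1a (0.01 and -0.22). In the same order, pgam1b had 0.61 and 0.01, and GPI (ENSDARG00000012987) -0.80 and -0.50. In the GAPDH, GPI, PKM and LDH steps, therefore, sister copies differed in whether they followed the muscle list.

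The set that followed muscle also varied more between fish. Its standard deviations between fish, group means removed, were 0.50 to 1.11 log2 units, with a median of 0.93. For the other 14 members they were 0.26 to 0.60, with a median of 0.36. PKM (ENSDARG00000099730) had 0.27 and its copy PKM (ENSDARG00000099860) had 1.05. GAPDHS had 0.30 and GAPDH 0.93.

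Several members outside the muscle set had a negative correlation with dermal fibroblast markers, mostly collagens, which themselves differed between the number runs. With the mean log2 CPM of 10 fibroblast markers, r was -0.67 for GAPDHS and PFKL (ENSDARG00000099755), -0.66 for PKM (ENSDARG00000099730), -0.62 for GPI (ENSDARG00000012987) and -0.60 for PFKP (ENSDARG00000012801). GAPDH and LDHA had r of 0.09 and 0.13 with that list over all fish. Among low-run fish they had 0.55 and 0.66, and among high-run fish 0.02 and 0.19. Within the low run (12 fish) and the high run (14 fish), r was -0.68 and -0.20 for GAPDHS, -0.58 and -0.21 for PFKL (ENSDARG00000099755), -0.46 and -0.39 for PKM (ENSDARG00000099730), -0.70 and -0.29 for GPI (ENSDARG00000012987) and -0.19 and -0.42 for PFKP (ENSDARG00000012801). These values were negative in both runs but mostly smaller than over all fish. SLC2A1 (ENSDARG00000007412) had r = 0.49 over all fish, with 0.64 among low-run fish and -0.17 among high-run fish.

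**Figure D2:**
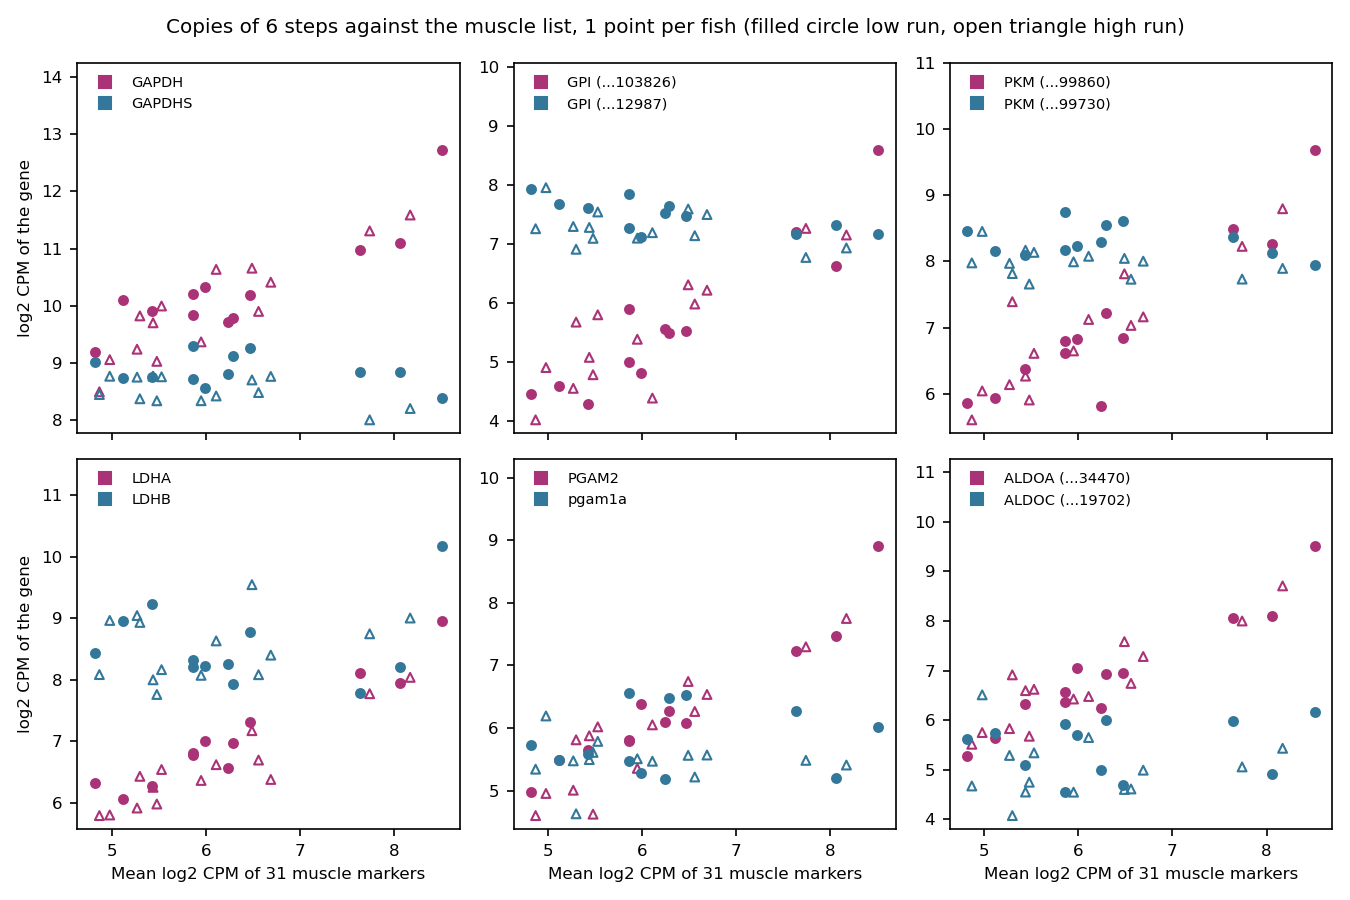
log2 CPM of a pair of copies for 6 steps against the mean log2 CPM of 31 muscle markers, with 1 point per fish. In each panel 1 copy rises with the muscle list, such as GAPDH with r = 0.89, and the other does not, such as GAPDHS with r = -0.36. Not every pair is shown: ENO3 and ENO1 (ENSDARG00000022456) both rise, with r of 0.87 and 0.85. Both ALDOA copies rise as well, with 0.94 and 0.88.

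Age was compared between the fish of 3 years and of 1 year at 37.5 nM. No member passed the test with age: 0 of 31 tested members had an adjusted p under 0.05 in edgeR's quasi-likelihood test, against 1.27% of the 18935 genes tested (0.676% higher and 0.597% lower). DESeq2 also called 0, of 33 members, against 5.5% of the genes to which it gave an adjusted p. It had 7 members at an unadjusted p under 0.05, a level at which the share of all genes was not counted. In edgeR 4 members had an unadjusted p under 0.05, where 20.4% of all genes did. The log2 fold changes were positive for 25 members and negative for 6, with a median of 0.43 against 0.03 for all genes tested.

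GAPDH and PGAM2, which followed muscle, had positive values with wide errors. GAPDH had 362, 1097 and 2540 CPM as lowest, median and highest value at 1 year and 606, 937 and 6740 CPM at 3 years. Its median was lower at 3 years, and the highest fish, 3-year replicate 3, set the mean difference. The log2 fold change of GAPDH was 0.71 ± 0.49 (SE, adjusted p = 0.414, edgeR). PGAM2 had 24.2, 55.3 and 157 CPM at 1 year and 32.0, 63.5 and 479 CPM at 3 years, with a log2 fold change of 1.01 ± 0.51 (adjusted p = 0.274, edgeR). The groups overlapped throughout in both genes.

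Over the 6 muscle isozymes, log2 fold changes with age were 0.45 to 1.04 with a median of 0.86, and over the 9 tested non-muscle paralogues the median was 0.02. The muscle marker list itself had a median of 0.88. Within the low run the muscle isozymes had a median of 1.68 and the muscle list 2.10, and within the high run -0.14 and -0.53. Each run alone called 0 members, against 0.179% of genes in the low run (0.0527% higher, 0.126% lower) and 0.0995% in the high run (0.0524% higher, 0.0471% lower). In each run 4 members had an unadjusted p under 0.05, and the share of all genes at that level was not counted. Without 3-year replicate 3, whose muscle markers summed to 73310 CPM, the median of the muscle isozymes was 0.17. With the muscle list as a term in the fit, the median over all tested members was 0.11.

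The smallest p-values with age belonged to pgam1b and LDHB, which did not follow muscle over all 26 fish (r = 0.31 and 0.21). The mutase pgam1b had 24.5, 31.6 and 34.8 CPM at 1 year and 32.7, 38.1 and 67.0 CPM at 3 years. The ranges overlapped only between 32.7 and 34.8 CPM, and how many of all genes overlap so little was not counted. Its log2 fold change was 0.43 ± 0.14 (adjusted p = 0.114, edgeR). The highest fish of pgam1b was 3-year replicate 3, and without that fish the log2 fold change was 0.29. LDHB had 269, 300 and 496 CPM at 1 year and 256, 507 and 1151 CPM at 3 years, with a log2 fold change of 0.70 ± 0.27 (adjusted p = 0.169, edgeR). By comparison, pgam1a and PKM (ENSDARG00000099730) had fold changes of 0.00 ± 0.14 and 0.00 ± 0.10. An interaction test of age with run called 0 of 31 members and 0% of all genes, with 8 members and 16.6% of genes at an unadjusted p under 0.05.

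Concentration was compared at 1 year, 37.5 nM against 3.75 nM, and it shares its 37.5 nM fish with the age comparison. A phosphoglycerate mutase, pgam1a, was lower at 37.5 nM, and it was the only member of 31 that passed, against 4.28% of the 18793 genes tested (1.28% higher and 3% lower). It had 42.4, 73.0 and 94.4 CPM as lowest, median and highest value at 3.75 nM and 37.1, 44.2 and 53.1 CPM at 37.5 nM. All 9 fish at 37.5 nM lay at or under 53.1 CPM, a level that 6 of the 9 fish at 3.75 nM exceeded, 4 from the low run and 2 from the high run. The log2 fold change was -0.68 ± 0.15 (adjusted p = 0.031, edgeR). The call was lost when any of 9 single fish was left out: 1-year 37.5 nM replicates 1, 2, 3, 5 and 7 and 1-year 3.75 nM replicates 1, 2, 3 and 4, with adjusted p up to 0.0692.

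Most other members leaned the same way without passing. Values were negative for 27 members and positive for 4, with a median log2 fold change of -0.33 against -0.01 for all genes, and 7 members had an unadjusted p under 0.05, where 22.9% of all genes did. The hexokinases HK1 and HK2, which trap glucose in the cell, had log2 fold changes of -0.61 ± 0.21 (adjusted p = 0.0936, edgeR) and -0.57 ± 0.20 (adjusted p = 0.106). PFKP (ENSDARG00000028000) had -0.37 ± 0.13 (adjusted p = 0.104) and GAPDHS -0.33 ± 0.14 (adjusted p = 0.174). The muscle marker list had a median of -0.60, with 28 of 28 tested markers negative and 0 called. With the muscle list as a term in the fit, 20 members were negative and 11 positive, with a median of -0.12.

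Among the low members, ldhbb, a further lactate dehydrogenase B copy, had 0.254, 6.55 and 22.2 CPM at 3.75 nM and 0.111, 0.456 and 3.95 CPM at 37.5 nM. At 3.75 nM the fish spread over nearly the whole range, and the groups overlapped. Its log2 fold change was -2.79 ± 0.87 (adjusted p = 0.0683, edgeR), and DESeq2 gave -2.82 with an adjusted p of 0.0158. For age and concentration side by side, HK1 had 0.27 and -0.61, HK2 0.21 and -0.57, pgam1a 0.00 and -0.68 and LDHB 0.70 and -0.03.

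**Figure D3:**
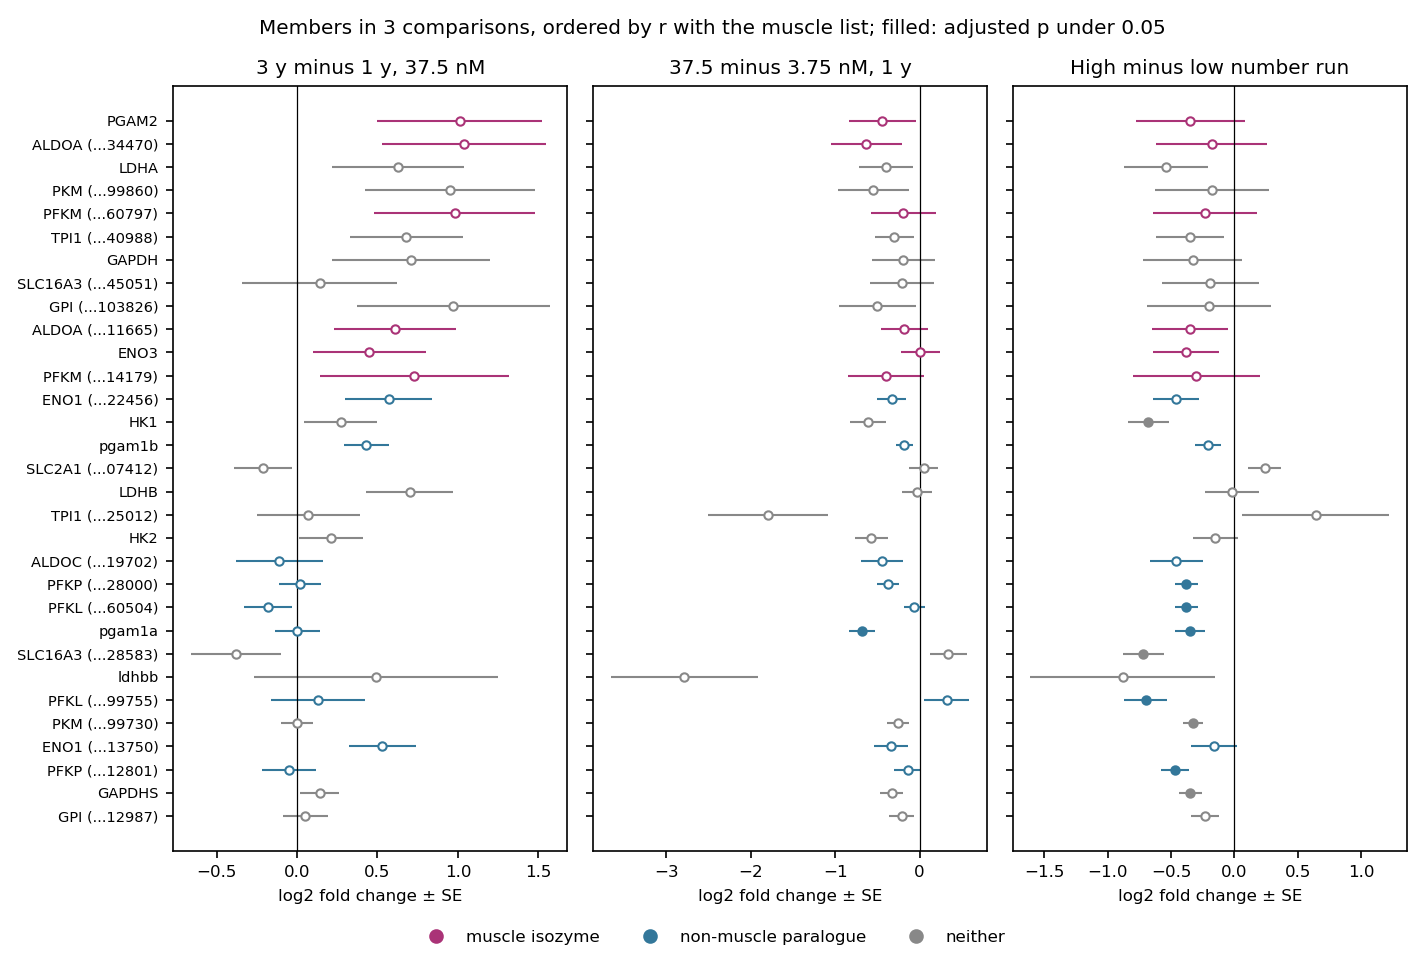
log2 fold change ± SE of the 31 tested members by age, concentration and number run, ordered from top by falling r with the muscle list. Filled points passed an adjusted p of 0.05: 0 by age, pgam1a by concentration, and 9 members by run, of which 0 are muscle isozymes. Of all genes tested, 1.27%, 4.28% and 14.5% passed. By run the median was -0.32 for the muscle isozymes and -0.38 for the non-muscle paralogues, and the muscle isozymes had wider errors.

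Taken separately, the number runs gave different counts. In the 4 against 4 fish of the low run, 7 members were called, 6 lower and 1 higher, against 26.7% of all genes (13.8% lower and 12.9% higher). In the 5 against 5 fish of the high run, edgeR called 0 members and 0% of genes, with 3 members at an unadjusted p under 0.05. The share of all genes at that unadjusted level was not counted. HK2 had 112.5, 122.8, 144.3 and 147.0 CPM in the low-run fish at 3.75 nM and 46.5, 55.9, 58.4 and 61.5 CPM in those at 37.5 nM. These groups did not overlap. The log2 fold change of HK2 was -1.27 ± 0.13 (adjusted p = 0.0003, edgeR) among low-run fish and 0.03 ± 0.22 (adjusted p = 0.997) among high-run fish.

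HK1 behaved alike, with 111.5, 127.0, 139.5 and 143.6 CPM in the low run at 3.75 nM and 61.4, 64.6, 65.1 and 70.3 CPM at 37.5 nM. Its log2 fold change was -1.02 ± 0.10 (adjusted p = 0.000307, edgeR) there and -0.15 ± 0.24 (adjusted p = 0.995) in the high run. For pgam1a the low-run values were 77.4, 89.3, 91.7 and 94.4 CPM against 38.8, 44.2, 45.0 and 53.1 CPM, with a log2 fold change of -0.98 ± 0.11 (adjusted p = 0.000452). In both genes the low-run groups were fully separate. HK1, HK2 and pgam1a were called on these same fish, where 26.7% of all genes were called. How many of all genes separate in this way was not counted. The phosphofructokinases moved in opposite directions in the low run, PFKP (ENSDARG00000028000) by -0.64 ± 0.12 (adjusted p = 0.0059) and PFKL (ENSDARG00000099755) by 0.70 ± 0.10 (adjusted p = 0.0016). The enolase ENO1 (ENSDARG00000022456) with -0.43 ± 0.12 (adjusted p = 0.0287) and pgam1b with -0.28 ± 0.08 (adjusted p = 0.037) complete the 7 members.

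The difference between the runs was tested as an interaction of concentration with run, which called 2 of 31 members and 6.4% of all genes (3.66% higher, 2.74% lower). The concentration effect was 1.3 ± 0.29 log2 units higher in the high run for HK2 (adjusted p = 0.014, edgeR) and 0.64 ± 0.18 for pgam1a (adjusted p = 0.0493). The HK2 call held without each of the 18 fish in turn, with adjusted p from 0.00734 to 0.038. The pgam1a call held without 5 of the 18 and was lost without each of the other 13, with adjusted p up to 0.0936. HK1 had an interaction of 0.88 ± 0.29 that did not pass (adjusted p = 0.0837). In the low run the muscle marker list also stood lower at 37.5 nM, with a median of -1.33. There 5 of 28 markers were called, all lower, against 26.7% of all genes called and 13.8% called lower. In the high run the muscle list had a median of -0.13, with 0 markers and 0% of all genes called. Its part in the member differences was not tested beyond the fit with that list as a term, which kept the pgam1a call over both runs (-0.70 ± 0.15, adjusted p = 0.0441, edgeR).

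**Figure D4:**
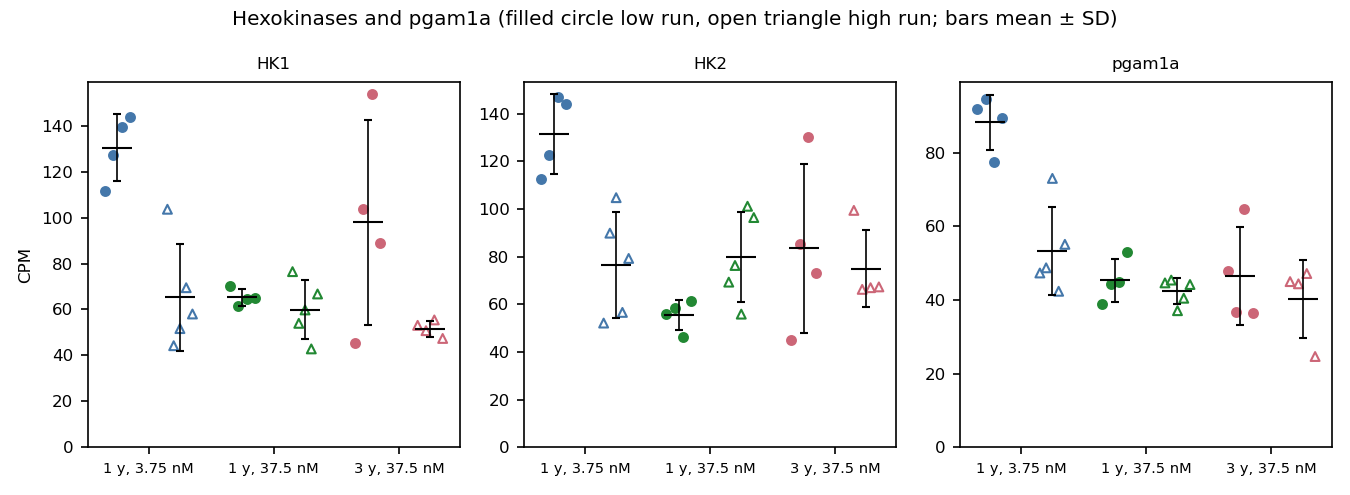
CPM of HK1, HK2 and pgam1a in every fish, by group and number run, with mean ± SD. The 4 low-run fish at 3.75 nM stand above the low-run fish at 37.5 nM in all 3 genes, for HK2 at 112.5 to 147.0 against 46.5 to 61.5 CPM. The 3 genes were called on these same low-run fish, where 26.7% of all genes were called.

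The number runs themselves separated more members than age or concentration did, and more of all genes too (14.5% against 1.27% and 4.28%). The run fit used 26 fish, the age fit 17 and the concentration fit 18, so these counts do not rest on equal numbers of fish. With group as a term, 9 of 31 members were lower in the high run and 0 were higher, against 14.5% of the 19592 genes tested (6.85% higher and 7.66% lower). At an unadjusted p under 0.05 there were 12 members and 29.8% of genes. The 9 called members were HK1, both PFKL copies, both PFKP copies, GAPDHS, pgam1a, PKM (ENSDARG00000099730) and SLC16A3 (ENSDARG00000028583). By class they were 5 of the 9 tested non-muscle paralogues, 4 of the 16 members of neither class and 0 of the 6 muscle isozymes. Set against the muscle list, they were 0 of the 13 members that followed it and 9 of the other 15 with 5 CPM or more. The median log2 difference was similar in both sets, at -0.33 and -0.35, and the median SE was 0.39 and 0.12. Values were negative for 29 members, with a median of -0.35 against 0.02 for all genes, but without 3-year replicate 3 for 21 members, with a median of -0.12.

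At the entry of the pathway, HK1 had 45.3, 96.2 and 153.6 CPM as lowest, median and highest value in the low run and 42.8, 54.7 and 103.6 CPM for the high run. The runs shared most of the lower range, and its log2 difference was -0.68 ± 0.16 (adjusted p = 0.00921, edgeR). HK2 did not pass, with -0.15 ± 0.18 (adjusted p = 0.618).

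All 4 non-muscle phosphofructokinases, subunits of the enzyme of the committed step, were lower in the high run. PFKL (ENSDARG00000099755) had 15.9, 22.2 and 30.9 CPM in the low run and 7.40, 12.5 and 27.2 CPM in the high run, a log2 difference of -0.70 ± 0.17 (adjusted p = 0.00975, edgeR). Its runs overlapped at 3.75 nM (15.9 to 19.0 against 7.40 to 20.4 CPM) and at 3 years (19.5 to 29.0 against 11.6 to 27.2 CPM). In the fish of 1 year at 37.5 nM its runs did not overlap, at 24.6 to 30.9 against 7.84 to 16.4 CPM. The gene was called by run on fish that include these, and how many of all genes separate so was not counted. PFKL (ENSDARG00000060504), PFKP (ENSDARG00000012801) and PFKP (ENSDARG00000028000) differed by -0.38 ± 0.09, -0.47 ± 0.11 and -0.38 ± 0.09. The muscle copies PFKM (ENSDARG00000014179) and PFKM (ENSDARG00000060797) had -0.30 ± 0.50 and -0.23 ± 0.41 (adjusted p = 0.735 and 0.754), errors several times as wide.

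In the lower pathway, GAPDHS had 336, 453 and 632 CPM in the low run and 258, 354 and 437 CPM in the high run, a log2 difference of -0.35 ± 0.09 (adjusted p = 0.0108, edgeR). PKM (ENSDARG00000099730) had 246, 308 and 428 CPM and 202, 254 and 350 CPM, with -0.33 ± 0.08 (adjusted p = 0.00673). The lactate exporter SLC16A3 (ENSDARG00000028583) had 4.71, 8.59 and 11.4 CPM and 2.39, 5.03 and 7.50 CPM, with -0.72 ± 0.16 (adjusted p = 0.0054). The ranges of the runs overlapped in each of these genes. The call of pgam1a, at -0.35 ± 0.12 (adjusted p = 0.0497), held without 4 of the 26 fish in turn, while the calls of the other 8 members held without each of the 26.

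Within single groups fewer fish entered and fewer members passed. At 1 year and 3.75 nM, 3 members were lower in the high run, HK1, PFKP (ENSDARG00000028000) and pgam1a, against 8.24% of genes (2.88% higher, 5.36% lower). At 1 year and 37.5 nM, 4 were lower, PFKL (ENSDARG00000099755), PFKP (ENSDARG00000012801), SLC16A3 (ENSDARG00000028583) and ldhbb, against 7.94% (3.72% higher, 4.22% lower). At 3 years, 0 members and 0% of genes passed in edgeR, with 3 members at an unadjusted p under 0.05. The share of all genes at that unadjusted level was not counted. Dermal fibroblast markers moved with the runs in the other direction: 7 of 10 were higher in the high run and 0 lower, with a median of 1.07, against 6.85% of all genes higher. Their summed level at 1 year and 37.5 nM was 1882 to 16880 CPM (median 2721) in low-run fish and 5057 to 51960 CPM (median 47000) in high-run fish, and 0 of the 10 markers were at 0 in all fish. With the fibroblast list as a term, HK1 (-0.98 ± 0.19) and PFKP (ENSDARG00000028000) (-0.40 ± 0.12) kept their call and the other 7 did not pass, at values from -0.20 (GAPDHS) to -0.67 (SLC16A3, ENSDARG00000028583), while 4 further members passed: TPI1 (ENSDARG00000040988), ENO1 (ENSDARG00000022456), ENO3 and LDHA. In that fit 27 of 31 members were negative, their median was -0.61, and 18 had an unadjusted p under 0.05. The share of all genes at that unadjusted level was not counted. The fit with the fibroblast list called 9.12% of genes (5.04% higher, 4.08% lower). With the muscle list as a term, the 9 members kept their call among 12 called, against 18.4% of genes (9.1% higher, 9.27% lower).

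**Figure D5:**
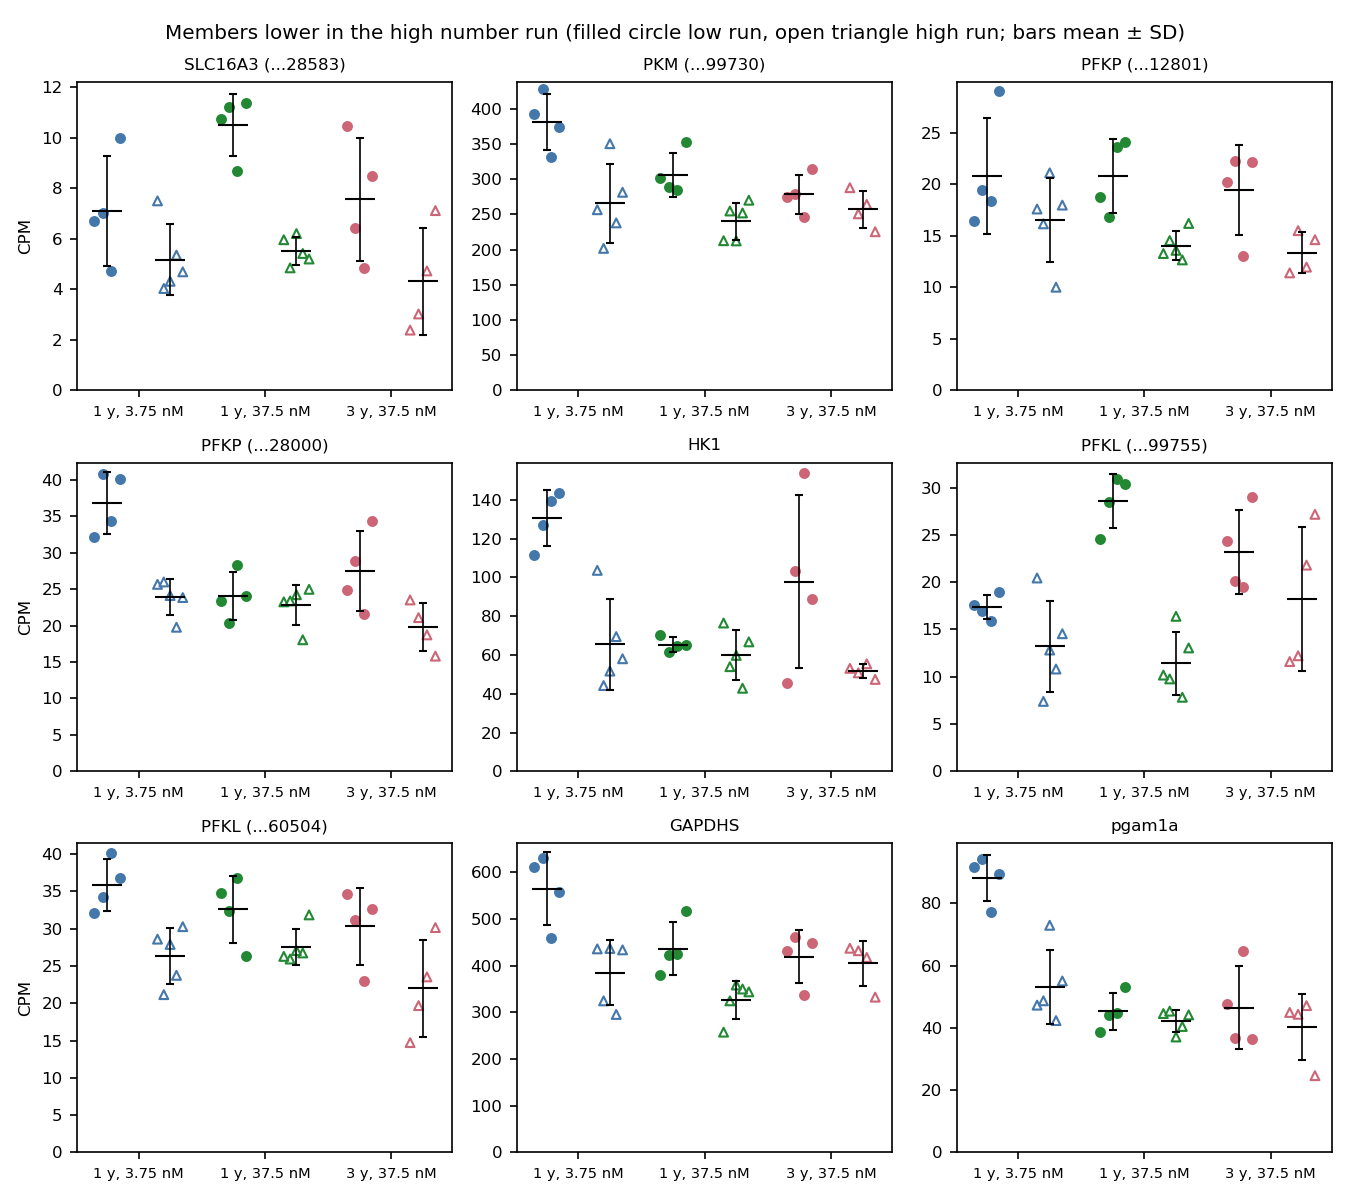
CPM of the 9 members lower in the high number run, for every fish by group and run, with mean ± SD. At 1 year and 3.75 nM, HK1 lies at 111.5 to 143.6 CPM in the low run and 44.2 to 103.6 CPM in the high run. In both 37.5 nM groups the runs of HK1 overlap, and at 3 years the runs overlap in all 9 members. The members were chosen for differing by run in these fish.

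With age, none of the 7 gluconeogenesis genes, 21 pyruvate-fate genes, 21 glycogen genes, 7 pentose phosphate genes, 11 other glucose transporters or 25 hypoxia-related genes tested was called in edgeR. At an unadjusted p under 0.05 there were 1, 7, 7, 1, 1 and 9 genes of these lists. Over all genes tested, 1.27% were called and 20.4% had an unadjusted p under 0.05. The glycogen list had a median of 0.53, with 18 of 21 values positive, while the muscle list had 0.88. Among low-run fish its median was 0.92, and among high-run fish 0.01. Without 3-year replicate 3 it was 0.07, with 13 of 21 positive. The part of muscle in it was not tested.

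Between concentrations, the gluconeogenesis list had 2 of 7 genes lower at 37.5 nM, where 3% of all genes were lower and 1.28% higher. PCK1, which makes phosphoenolpyruvate, had a log2 fold change of -3.20 ± 0.71 (adjusted p = 0.031, edgeR), and G6PC1 (ENSDARG00000013721), a glucose 6-phosphatase, of -2.36 ± 0.66 (adjusted p = 0.0489). Both were low in skin, at average log2 CPM of 1.81 and 1.43. SLC2A13 (ENSDARG00000076899), a myo-inositol transporter of the glucose transporter family, was higher by 0.76 ± 0.21 (adjusted p = 0.0458). Leaving out single fish ended the PCK1 call in 10 of 18 cases (adjusted p up to 0.0692), that of G6PC1 in 15 and that of SLC2A13 in 14. All 3 calls ended without any of 1-year 37.5 nM replicates 1, 2, 3, 4, 5 and 7 or 1-year 3.75 nM replicates 1, 2, 3 and 4. Without 1-year 37.5 nM replicate 7 or 1-year 3.75 nM replicate 1, 0 genes were called over all those tested. The lists of regulators, pyruvate fate, glycogen, pentose phosphate and hypoxia had 0 genes called. At an unadjusted p under 0.05 they had 4 of 11, 6 of 21, 4 of 21, 3 of 7 and 4 of 24, against 22.9% of all genes.

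Between the number runs, 2 of 13 tested regulators and other isozymes were called, against 14.5% of all genes (6.85% higher and 7.66% lower). Both were higher in the high run, while the list as a whole had 6 positive and 7 negative values with a median of -0.03. PFKFB3, which makes the phosphofructokinase activator fructose 2,6-bisphosphate, was higher in the high run by 1.33 ± 0.29 log2 units (adjusted p = 0.005, edgeR), and PFKFB4 (ENSDARG00000029075) by 0.75 ± 0.23 (adjusted p = 0.029), a call lost without 3-year replicate 6 (adjusted p = 0.051). Among the pyruvate-fate genes 4 of 21 were higher and 0 lower. They included PDK2 (ENSDARG00000059054), with 1.56 ± 0.42 (adjusted p = 0.0171), and PDK3 (ENSDARG00000014527), with 0.84 ± 0.19 (adjusted p = 0.00562), kinases that switch off pyruvate dehydrogenase. A subunit of pyruvate dehydrogenase itself, pdha1b, was also higher. Its log2 difference was 0.76 to 0.96 without each of the 26 fish in turn, and its call held each time. In the pentose phosphate pathway PGLS and RPIA were lower by -0.58 ± 0.17 (adjusted p = 0.0223) and -0.41 ± 0.10 (adjusted p = 0.00838). The gluconeogenesis list had pck2 lower, glycogen had 1 gene higher and 1 lower, and the other glucose transporters had 1 higher and 1 lower. Leaving out each of the 26 fish in turn ended the pck2 call in 7 cases. It ended that of GBE1 (ENSDARG00000029051), the higher glycogen gene, in 12. Among the transporters, the call of SLC2A10 (higher) ended in 16 cases and that of SLC2A6 (lower) in 2. The call of PDK2 (ENSDARG00000020876), a further pyruvate-fate gene, ended in 2. The hypoxia list had 0 of 25 called, with 6 at an unadjusted p under 0.05, against 29.8% of all genes.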

How the data were processed

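Per the labels, skin RNA of 26 fish went into libraries of the TruSeq kit (version v2). The submitters' processing notes name featureCounts 1.4.6-p4 and the build GRCz10, besides STAR 2.4.1d and the base caller CASAVA 1.8.2. The authors deposited counts per Ensembl gene and RPKM values, in a table for 37.5 nM and another for 3.75 nM. Total counts were 26161555 to 28481706 (1 year, 3.75 nM), 25968091 to 32414459 (1 year, 37.5 nM) and 25454674 to 35162246 (3 years). Whether counting used strand is not given in the sources used here, and reads of near-identical copies may be split, so values of copies that share a symbol are uncertain to that extent.

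Counts were scaled by TMM, filtered with filterByExpr (31 of 33 members passed) and tested across all genes with the quasi-likelihood test of edgeR 4.0.16, run in R 4.3.3. Adjusted p-values are by Benjamini-Hochberg over all genes tested, with a threshold of 0.05. SE is the log2 fold change over the square root of F. Per-fish CPM are TMM-scaled over 26 fish, and log2 CPM used a prior count of 2. In the fits for age, concentration and run, edgeR estimated biological coefficients of variation of 0.396, 0.4 and 0.41. Counts were simulated with changes only in genes averaging 5 CPM or more. Of 2-fold changes, 76% were recovered between ages (18935 genes), 72% between concentrations (18793 genes) and 90% between runs (19592 genes). Of the calls, 3.98%, 5.14% and 2.6% were false, and there were 0 calls where nothing changed. Genes were drawn independently, without variation shared between genes, so these shares do not carry over to the muscle-following members. DESeq2 1.42.0, and limma 3.58.1 on log2(RPKM + 0.5), were alternatives, as were RLE size factors, no filter, run or marker terms, all 26 fish in 1 fit, single runs or groups, and leaving out each fish. The fits of the run comparison without each fish, with DESeq2 and with the fibroblast term, the alternatives of both interactions, and the fits of pathway genes without each fish, were added after seeing the data.

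Members and gene lists were chosen with earlier results of these data known. Described are members past the threshold and members of each step averaging 5 CPM or more. Names came from a table of 26269 named identifiers. Replicates are numbered in accession order and pair no samples. The result of the list of glycolytic regulators and other isozymes with age is not reported here.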

Additional observations from a re-analysis of the deposited data

Results flagged for a closer look

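In 6 of 93 combinations of member and group, a fish stood apart from the others of its group by Dixon's criterion, where chance gives about 1 in 20. In 4 of them the fish was among those of 3 years, replicate 3, which also had the highest muscle markers of all 26 fish, at 73310 summed CPM. ALDOA (ENSDARG00000011665) reached log2 CPM 11.97 there, or 4013 CPM against 577 to 1340 CPM in the other 7 fish. PFKM (ENSDARG00000014179) reached 8.44 (348 against 22.3 to 62.2 CPM), TPI1 (ENSDARG00000040988) 9.98 (1011 against 159 to 360 CPM) and pgam1b 6.07 (67.0 against 32.7 to 43.0 CPM). The part of the muscle markers in these values was not tested. In 3-year replicate 5, ENO1 (ENSDARG00000013750) reached log2 CPM 2.71, or 6.48 against 2.38 to 3.73 CPM. In 1-year 3.75 nM replicate 6, the low copy TPI1 (ENSDARG00000025012) reached 3.62, or 12.3 against 0.171 to 1.07 CPM.

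In the interaction test of concentration with number run, 2 of 31 members were called, against 6.4% of all genes. The difference was 1.3 log2 units for HK2 (adjusted p = 0.014, edgeR interaction test) and 0.64 for pgam1a (adjusted p = 0.0493). The HK2 call held without each of the 18 fish in turn. The pgam1a call held without only 5 of the 18, with adjusted p up to 0.0936.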

How the results depend on the processing

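The count of members called by age was 0 under every alternative run. By concentration it was 1, against 4.28% of all genes. It was 2 with DESeq2 (8.79% of genes), 2 with the run as a term (7.59%) and 7 in the low run (26.7%). In the high run and with limma on RPKM it was 0 (0%), and without single fish 0 to 3 (0% to 8.79%). Leaving out 1-year 3.75 nM replicates 5 or 7 gave 3 (5.55% and 7.35% of genes), and 6, 8 or 9 gave 2 (5.31%, 8.19% and 8.79%). By run it was 9, against 14.5% of all genes. Within groups it was 3 at 1 year and 3.75 nM (8.24%), 4 at 1 year and 37.5 nM (7.94%) and 0 at 3 years (0%). Without single fish it was 8 to 9 (10.4% to 18.6%). For concentration by run it was 2, against 6.4% of all genes. It was 1 with RLE (6.54%), 1 without the filter (3.33%) and 1 to 4 without single fish (3.34% to 9.62%). Of these fits, those without 1-year 3.75 nM replicate 5 or 6 gave 4. Those without replicates 1, 2, 3, 4, 8 or 9 of that group gave 1. The count was also 1 without 1-year 37.5 nM replicates 1, 2, 5, 6 or 9. No called result changed direction. PFKM (ENSDARG00000014179) had a log2 fold change with age of -0.41 in DESeq2 and 0.73 in edgeR, and the cause was not tested. Over all genes, 241 calls by age became 1267 with DESeq2, 114 with limma on RPKM, 34 and 19 in the low and high run, and 64 to 712 without single fish. The 804 calls by concentration became 5024 and 0 in the low and high run, 1851 with DESeq2 and 1427 with the run term. They became 474 with the muscle term, 209 without the filter, 0 with limma on RPKM and 0 to 1661 without single fish. The 1202 interaction calls became 632 to 1820 without single fish. No paired analysis was possible because replicate numbers follow accession order and no label ties fish of different groups together.

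Limits are the absence of untreated fish, the coupling of age with strain and of concentration with table, and the unexplained number runs. Wide spread of the muscle-following members leaves standard errors of 0.27 to 0.60 log2 units with age. The largest log2 fold change among them, 1.04 ± 0.51 for ALDOA (ENSDARG00000034470), did not pass (adjusted p = 0.261, edgeR). Differences of that size could therefore go uncalled in these members. The medians of the muscle isozymes with age (0.86) and run (-0.32) became 0.17 and 0.04 without 3-year replicate 3.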
